A study of Mus musculus with 109 samples.

Results

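Open chromatin in mouse microglia was profiled by ATAC-seq, and the regions described here are those with a called peak at 2 weeks after lipopolysaccharide (LPS) and at no other time. They were chosen by the peak calls themselves. All peaks of the 20 libraries that overlapped by 1 bp or more were merged into 59636 regions, and a region was kept where at least 2 of the 4 libraries at 2 weeks held a peak and no untreated, 12 h or 24 h library did. This left 1298 regions. Their presence at 2 weeks and absence elsewhere is therefore what selected them and not a finding, and no test was made of it.

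The cells were microglia isolated from the brain by flow cytometry on CD45 and CD11b, from C57B/6 (WT) mice that were untreated or had received 2.5 mg/kg LPS by intraperitoneal injection 12 h, 24 h or 2 weeks before. Each time after LPS had 4 libraries. The untreated group had 8, from sample numbers 1 to 4, each deposited as 2 lists (S1 to S4 and S13 to S16) that are called runs here. The labels do not say whether the 2 are repeat runs of the same library or separate libraries. The labels used here give neither the age of the mice nor whether animals were pooled, so the spread between libraries may be partly technical. The RNA libraries of the series hold no 2-week time point and were not analysed here.

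Microglia are the resident macrophages of the brain. LPS, a component of the outer membrane of Gram-negative bacteria, is sensed through Toll-like receptor 4, and an injection outside the brain brings microglia into an inflammatory state that later subsides. ATAC-seq uses the Tn5 transposase, which inserts preferentially where DNA is not wrapped in nucleosomes, so that promoters and active enhancers give local pile-ups of reads. Enhancers opened by inflammatory signals can stay accessible after the signal has ended, which is one reason to look at a late time point.

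Positions are given in the mm9 build of the files. Genes, exons and sequence at these positions were not analysed here, because the gene tables used were of another build, and the microglial identity of the libraries was for the same reason not checked against marker genes. Each peak carries a score, which started at the library's own minimum tag count in 19 of the 20 lists and is not corrected for depth. Each peak also has a normalised tag count, scaled by the authors to 10000000 tags per library, which is the quantity used here to compare libraries.

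The peak lists differed widely in length. At 2 weeks, libraries 1 to 4 had 17871104, 11243027, 13686356 and 13352419 sequenced tags, yet listed 7295, 29896, 33114 and 6342 peaks. Libraries 2 and 3 thus listed over 4 times as many peaks as libraries 1 and 4, although library 1 was the deepest. These lengths count a position each time it is listed, and repeats fell mostly in the long lists. Libraries 1 to 4 held 7242, 25506, 28229 and 6315 distinct positions, a smaller contrast. The share of tags in peaks was 1.08% and 1.04% in libraries 1 and 4, against 5.79% and 5.92% in libraries 2 and 3. Elsewhere the lists held 4 to 7654 peaks (untreated, 4159327 to 8598043 tags), 1185 to 35435 peaks (12 h, 6208254 to 17922219 tags) and 19865 to 30263 peaks (24 h, 7629951 to 15034308 tags). In every list the header names the library itself as its own control, and a peak had to hold 4 times as many tags as that control count. This filter removed 67.2% and 70.5% of candidate peaks in 2-week libraries 2 and 3 and 89.6% and 88.7% in libraries 1 and 4. It removed 82.6 to 99.97% of those in the untreated libraries. A region missing from a list was therefore not necessarily closed there, and its signal in the libraries that lack a peak was not analysed here.

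With all peaks and libraries, the share of regions found only at 2 weeks was close to that found only at 24 h, but other settings set them apart in either direction. Of 18570 regions with a peak in at least 2 libraries at 2 weeks, the 1298 made up 6.99%. The same rule applied to 24 h gave 1466 of 22673 regions (6.47%), and applied to 12 h it gave 795 of 15425 (5.15%). In the untreated group it gave 18 of 1463 (1.23%), from the shortest lists. The 2-week share was 4.32 to 6.51% when each 2-week library was left out in turn. It was 6.99 to 9.24% when each 12 h or 24 h library or untreated number was left out. Over the same settings the 24 h share lay between 4.07% and 11.3%. Leaving out a library of another group relaxes the rule, so these ranges do not measure the spread between libraries. With the 3000 best-scoring peaks of the 13 libraries that listed as many, the shares were 24.6% at 2 weeks and 15.3% at 24 h. Without 2-week libraries 2 and 3 they were 4.45% and 12.8%, a setting that also relaxes the rule for 24 h. Which of the times had the larger share thus depended on the libraries and peaks admitted.

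Most regions with a peak in 2 or more 2-week libraries were also listed in another group, namely 17272 of 18570. A peak at 24 h was held by 15919 of the 18570, at 12 h by 14911 and in an untreated library by 6817. Among the 17272, which were set apart by having such a peak, the shares were 92.2%, 86.3% and 39.5%. Just outside the rule on this side were 1698 regions (9.83% of the 17272) with a peak in exactly 1 library of the other groups, most often 12 h library 3 (417 regions) or 24 h library 1 (395 regions). Just outside it on the other side were 6304 regions listed in 1 library at 2 weeks and nowhere else. Each of these bordering sets was larger than the 1298 regions themselves.

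Agreement among the 4 libraries was uneven. Of the 1298 regions, 1167 had a peak in 2 libraries, 117 in 3 and 14 in all 4, so that 10.1% were found in 3 or 4 libraries. Over all regions with a peak in 2 or more libraries at 2 weeks the share was 30.3% (5626 of 18570). Among regions found only at 24 h it was 20.1%, against 56.7% over all 24 h regions, and among those only at 12 h it was 7.42%, against 30.2%. These differences were not tested. A single pair, libraries 2 and 3, held 766 of the regions (59.0%) without support from libraries 1 or 4. The share in this pair alone was not computed over all 2-week regions. Counted with or without support from libraries 1 and 4, the pair held 857 of the 1298 regions, against 15093 of all 18570. Its dominance is thus not particular to these regions. The next pairs were 1 and 3 with 156 regions and 3 and 4 with 84, while 43 regions were listed in 1 and 4 alone. In all, 1255 of the 1298 included library 2 or 3, the 2 long lists. At 24 h, where the lists were of more even length, the most frequent pair, again its 2 longest lists, held 29.2%, and at 12 h the pair with the longest lists held 58.6%.

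**Figure D1:**
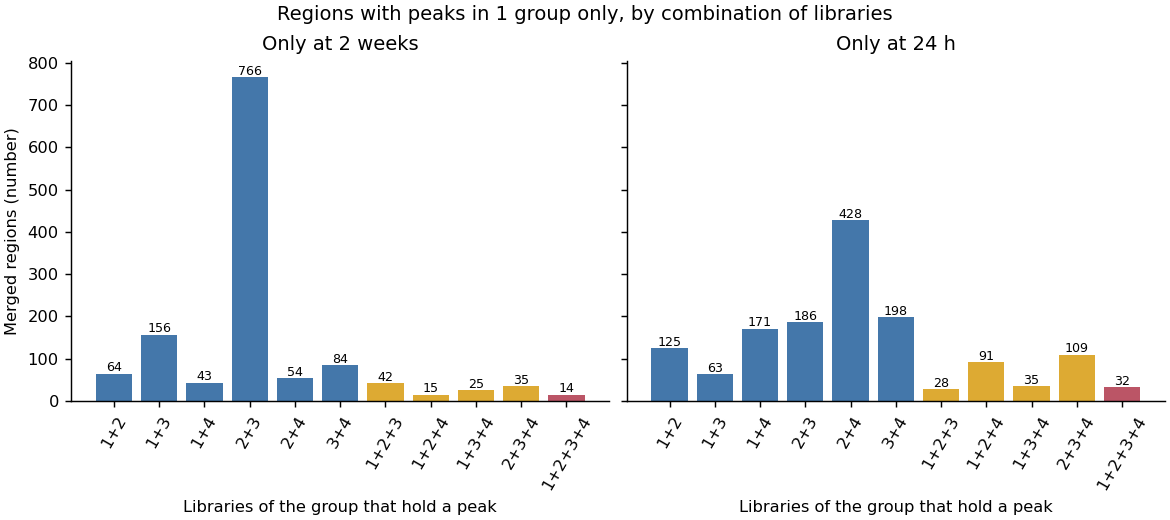
Number of merged regions (y axis) found only at 2 weeks (left) or only at 24 h (right), by which of the group's 4 libraries held a peak (x axis); blue, yellow and red bars are combinations of 2, 3 and 4 libraries. At 2 weeks libraries 2 and 3 alone account for 766 of 1298 regions, while at 24 h the largest bar is 428 of 1466.

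As a share of its own list, each library held about as many of these regions. They made up 4.98% of the regions in library 1, 4.13% in library 2, 4.21% in library 3 and 4.28% in library 4. The counts behind these shares were 359, 990, 1122 and 270 regions. The pair 2 and 3 had the longest lists, and the part of list length in its count was not tested. Libraries 2 and 3 shared 15093 regions in all, which is 63.0% of the regions of library 2 and 56.6% of those of library 3. Libraries 1 and 4, with short lists, shared 2204, which is 30.6% and 35.0% of theirs.

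The untreated numbers with 2 lists show how far lists labelled with the same number matched, whether or not they come from the same library. Run S13 of untreated number 1 held 4854 regions, of which 41.6% were also listed in run S1, and 28.1% of the 7192 regions of run S1 were listed in S13. For untreated number 2, 26.7% of the 1268 regions of run S14 were listed in run S2. Restricted to peaks with a score of at least 30, the shares were 48.6% for S13 in S1, 35.3% for S1 in S13 55.6% for S14 in S2 and 39.2% for S2 in S14. For numbers 1 and 2, more than 4 in 10 strong regions of a run were thus missing from the list of the other run. Number 4 had only 13 and 11 strong regions in its 2 runs, of which 84.6% and 81.8% were shared, and number 3 had lists of 8 and 4 peaks. The labels do not say what distinguishes the paired runs.

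The 14 regions with a peak in every 2-week library had mean normalised tag counts of 6.88 to 12.9 tags per 10000000, with a median of 8.31. The regions listed in 2 libraries had a median of 10.3 and ran from 5.08 to 117.3, so that typical levels were similar and the highest ones were not among the 14. They lay on 10 chromosomes and were 123 to 193 bp long. By the rule none of them overlapped a region with a peak in another group, and none came within 500 bp of one. Their distances to the nearest such region ran from 1631 to 111841 bp, with a median of 20122 bp, and 8 of the 14 were more than 10000 bp away.

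Region 1, at chr7:89932383-89932508, had the highest mean score of these 14. Its normalised tag counts were 8.95, 13.3, 11.0 and 18.3 in libraries 1 to 4, and the nearest region with a peak in another group, listed in 1 library at 12 h, lay 27625 bp away. Library 4 was highest and library 1 lowest here. Region 2, at chrX:11089769-11089891, had 12.6, 8.89, 12.4 and 14.2 and lay 74837 bp from a region listed at 12 h and 24 h. Region 3, at chr10:82972102-82972294, had 12.6, 8.89, 7.31 and 8.99. In regions 2 and 3 the highest library was less than 2 times the lowest.

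Region 4, at chr10:5559294-5559444, was the most isolated of the 14, at 111841 bp from a region that was listed in all 3 other groups. Its counts were 6.99, 9.78, 9.50 and 9.74. Region 7, at chr7:56526120-56526260, was the least isolated, at 1631 bp from a region also listed in all 3 other groups, and its counts were 9.23, 8.89, 8.40 and 6.74. Both had nearly level counts in 3 of the 4 libraries. Region 5, at chr6:128850175-128850318, with 7.55, 8, 8.04 and 10.1, and region 6, at chr3:102591399-102591532, with 8.11, 7.12, 8.40 and 8.99, were similarly even.

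Regions 8 to 12 completed the 12 named by order of mean score. Region 8 at chr13:76726464-76726587 had 8.95, 5.78, 9.50 and 8.99, with library 2 lowest. Region 9 at chr1:156670362-156670495 had 10.6, 5.78, 6.58 and 10.9, so that the short-list libraries 1 and 4 stood above libraries 2 and 3. The same order held in region 10 at chr5:97187299-97187445 (7.55, 6.23, 5.11 and 8.61). In region 11 at chr1:154567850-154567980 library 1 was highest (9.51, 7.12, 5.48 and 7.11), and in region 12 at chr4:123318175-123318305 the counts spread least of these (8.11, 7.12, 6.58 and 7.49). Regions 13 and 14, named after their values were seen, lay at chr5:109895779-109895901 and chr11:99232233-99232355 with mean counts of 7.39 and 7.02.

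The order of the libraries in these 14 regions depended on the quantity. By score, which is not corrected for depth, library 1, the deepest, was highest or tied for highest in 13 of the 14 regions. By normalised tag count it was highest in 4, library 4 in 6, library 2 in 3 and library 3 in 1. The medians over the 14 regions were 8.53, 7.78, 7.68 and 8.99 in libraries 1 to 4, close to each other. Each of the 14 had to reach the minimum score of every library, so level counts are in part what selected them. By score, library 2 was lowest or tied for lowest in 12 of the 14. Its median score was 8.5, against a minimum of 7 for a peak in that library.

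**Figure D2:**
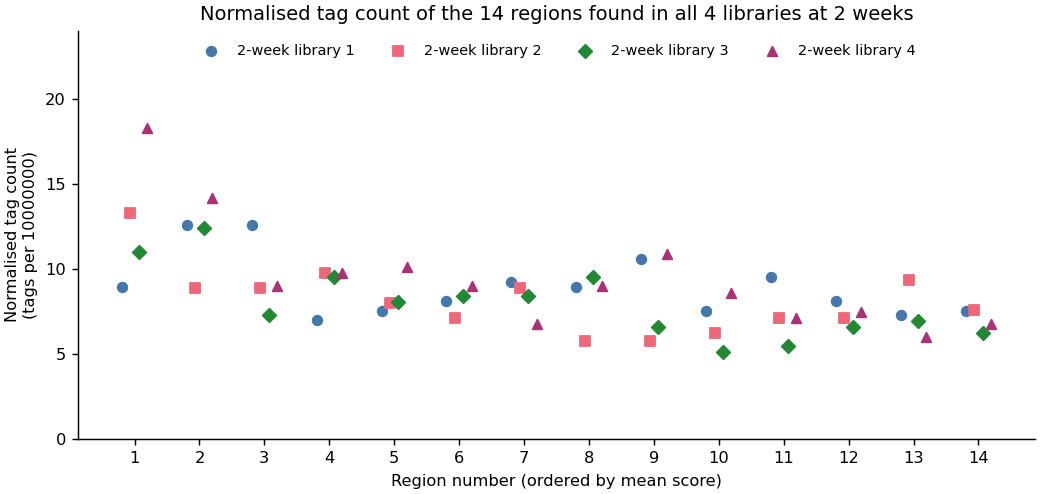
Normalised tag count (y axis, tags per 10000000) of the 14 regions with a peak in all 4 libraries at 2 weeks (x axis, ordered by mean score); each point is 1 library. Counts lie between 5.11 and 18.3, and the 4 libraries interleave from region to region. Every region shown had to be listed as a peak in each library, which limits how low a count can be.

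The 117 regions listed in 3 libraries had a median mean normalised count of 8.27, close to that of the 14, but reached far higher. The following were named after their values were seen. Region 15, at chr16:90144066-90144234, had 91.6, 75.6 and 109.3 in libraries 2, 3 and 4 and no peak in library 1. It lay only 142 bp from a region listed in 2 libraries at 12 h. Region 16, at chr7:111518390-111518562, had 56.0, 43.1 and 50.2 in libraries 1, 3 and 4 and lay 22 bp from a region listed in 2 libraries at 12 h. Region 18, at chr5:32000182-32000352, with 61.4, 48.6 and 40.4 in libraries 2, 3 and 4, lay 18 bp from a region listed at 12 h and 24 h. Region 17, at chr1:132980824-132980942, with 40.8, 32.0 and 33.6 in libraries 1 to 3, was 2668 bp from the nearest. Region 19, at chr5:135152083-135152205, with 37.8, 34.0 and 31.8 in libraries 2, 3 and 4, was 1858 bp from it. Of these 5 regions, 3 were thus less than 200 bp from a site listed at another time and the other 2 were not.

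The 3 highest mean scores among regions in 2 libraries belonged to regions listed in libraries 2 and 3 alone. Single peaks scored higher elsewhere, up to 97 in library 1, in region 135 at chr7:135605233-135605351, which was listed in libraries 1 and 2 and is named after its values were seen. Region 132, at chr6:21899749-21899829, had normalised counts of 115.2 and 104.1 and lay 23755 bp from the nearest region of another group. Region 133, at chr9:14589092-14589175, had 106.7 and 110.0 at a distance of 19586 bp, and region 134, at chr13:64471709-64471792, had 117.0 and 117.6 at 5333 bp. In each of the 3 the counts of both libraries differed by little. Their tags exceeded the control count by 4.53 to 5.72 times, just above the 4 times that a peak needed to be listed. At the other end, regions 1296, 1297 and 1298, at chr8:11506903-11507018, chr8:14879237-14879333 and chr9:48598814-48598900, had the lowest allowed score of 7 in both libraries, or normalised counts of 6.23 in library 2 and 5.48 to 5.85 in library 3.

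Peaks of the 1298 regions had lower median scores in each library than those of the other regions in 2 or more 2-week libraries. Their median score was 13 against 20 in library 1, 12 against 14 in library 2, 13.5 against 17 in library 3 and 11.5 against 15.5 in library 4, where the comparison is with the 17272 regions also listed in another group. The share of peaks within 2 of the library's minimum score was 25.3% against 5.90% in library 1, 30.4% against 15.4% in library 2, 22.2% against 7.80% in library 3 and 35.2% against 12.9% in library 4. In library 2 the upper quartile of the 1298 was not lower, at 21 against 20.5. Regions with a peak in exactly 1 library of the other groups lay between, with medians of 14.5, 13.5, 15.5 and 12.0. Regions listed in 1 library at 2 weeks and nowhere else had medians of 11.5, 14, 11.5 and 11, below the 1298 except in library 2. These values come from the lists that chose the regions and are given as a description.

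The relation to score was not a steady fall. Among 2-week regions with a mean score under 10, 18.6% were found only at 2 weeks (315 regions). The share was 7.65% at scores of 10 to 15, 4.13% at 15 to 20 and 3.72% at 20 to 30. It then stood at 6.04% at 30 to 40 and 8.34% at 40 or more. Both the weakest and the strongest regions thus had higher shares than the middle ranges. These score ranges were set after the values were seen.

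Most of the strong regions were listed in libraries 2 and 3 alone. Of the 175 with a mean score of at least 30, 157 were listed in those 2 libraries alone, 5 in 3 libraries and none in all 4. The share listed in libraries 2 and 3 alone was 47.0% of regions under a score of 10, 92.0% at 30 to 40 and 87.4% at 40 or more. It was not computed for the other 2-week regions, so it is not shown to be particular to these. Over the same ranges the median excess over the control count went from 13 down to 5.4 times in library 2 and from 10 down to 5 times in library 3. The median normalised count went the other way, from 6.67 to 62.05 in library 2 and from 6.21 to 66.5 in library 3. The highest ratios were thus at the lowest counts, and the control counts behind them were not analysed here. In the other 2-week regions, peaks with a score of at least 30 in the library itself had medians of 5.68 and 5.35 times in libraries 2 and 3. The 175, chosen by mean score and so not by the same limit, had 5.29 and 5.09 times. The part of the control filter in which libraries list a strong region was not tested.

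**Figure D3:**
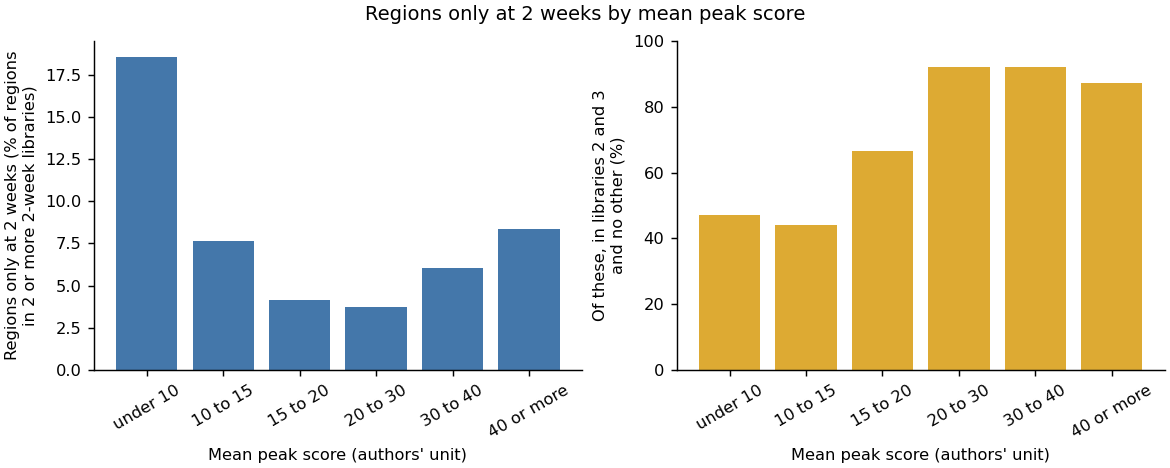
Left, regions only at 2 weeks as a share (y axis, %) of all regions in at least 2 libraries at 2 weeks, by mean peak score (x axis); right, the share of these regions (y axis, %) listed in libraries 2 and 3 alone. The left share is highest under a score of 10 (18.6%), lowest at 20 to 30 (3.72%) and 8.34% at 40 or more, where 87.4% of the regions are from libraries 2 and 3 alone. The right share was not computed for the other 2-week regions.

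Where libraries 2 and 3 both listed a region, they gave it similar values. Over the 857 regions only at 2 weeks with a peak in both, the log2 scores correlated across regions with Pearson's r of 0.916 and Spearman's rho of 0.896, against 0.859 and 0.841 over the 14236 other regions shared by both. The peak centres lay a median of 14 bp apart, against 10 bp. The normalised count in library 3 was a median of 1.07 times that in library 2, against 1.10 times. Regions are not independent replicates, both sets were chosen to be peaks in both libraries, and these are descriptions.

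Most of the regions lay within 10000 bp of chromatin that was listed as open at other times. The median distance to the nearest region with a peak in another group was 5510 bp, with quartiles of 1332 and 15406 bp. Within 500 bp of such a region were 193 (14.9%), within 10000 bp were 856 (65.9%), and 442 (34.1%) were farther away. For regions found only at 24 h the median was 4611 bp with 30.2% beyond 10000 bp, and for those only at 12 h it was 2607 bp with 26.4%. By the median and the 10000 bp limit the nearest open neighbour was thus somewhat farther for the 2-week regions. At short range they were level with the 24 h regions. Within 200 bp lay 10.6% of the 2-week, 10.1% of the 24 h and 21.1% of the 12 h regions. The references differ between the 3 sets (52034 regions for 2 weeks, 52452 for 24 h and 52884 for 12 h), and the differences were not tested.

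**Figure D4:**
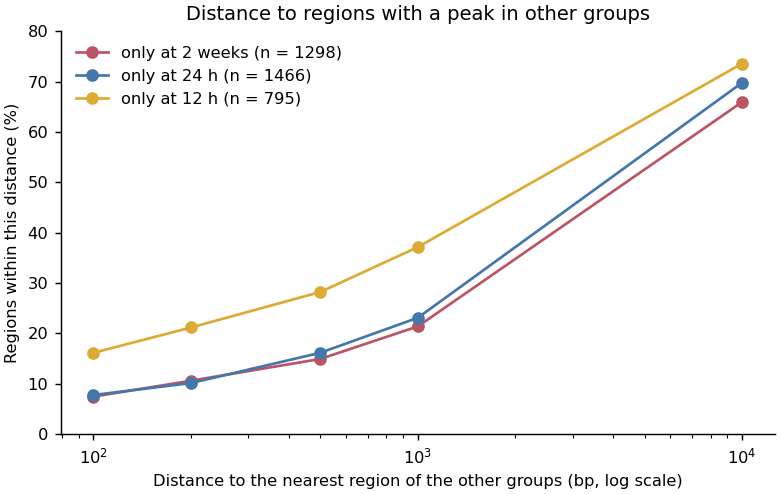
Share of regions (y axis, %) within a given distance (x axis, bp, log scale) of the nearest region with a peak in another group, for regions found only at 2 weeks, 24 h or 12 h. At 10000 bp the 2-week line reaches 65.9%, the 24 h line 69.8% and the 12 h line 73.6%.

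Distance went with the number of libraries. The median was 5171 bp for regions in 2 libraries, 8297 bp for those in 3 and 20122 bp for those in all 4, a step that rests on 14 regions. Of the 193 regions within 500 bp, the neighbour had a peak at 12 h in 140 (72.5%), at 24 h in 127 (65.8%) and in an untreated library in 34 (17.6%). Of all 52034 regions with a peak in another group, 37357 had one at 12 h, 40055 at 24 h and 11328 in an untreated library. The differences were not tested. In 80 of the 193 (41.5%) the neighbour also held a 2-week peak, so that both sites were listed at 2 weeks. In the rest the neighbour was listed in other groups only. The share holding a 2-week peak was not computed over all 52034 regions. Peaks had a fixed width of 77 to 173 bp in each list, and whether such neighbours are separate sites was not tested.

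The farthest regions were each more than 1000000 bp from any region of the other groups, and there were 3 of them, named after their values were seen. Region 191, at chrX:114884065-114884183, was listed in libraries 1 and 2 and lay 3902340 bp away. Region 596, at chr12:19294257-19294383, in libraries 2 and 3, lay 1478560 bp away, and region 817, at chr15:32696154-32696288, in libraries 1 and 4, lay 1164326 bp away. Each came from a different pair of libraries.

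The regions were spread over the genome. They were found on chromosomes 1 to 19 and X. Their share of the regions listed in 2 or more 2-week libraries ran from 5.09% on chromosome 17 (44 of 864) to 8.96% on chromosome X (32 of 357). Within 10000 bp of another of the 1298 lay 28 (2.16%), and the median distance between neighbours of the set was 393867 bp. This spacing depends on the number of regions and was not compared with that of other sets. They were 79 to 224 bp long with a median of 119 bp, against a median of 146 bp for the other 2-week regions, which merge peaks of more libraries.

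The number of regions depended strongly on libraries 2 and 3 and on which peaks were admitted. Without 2-week library 3 the rule left 293 regions, and without library 2 it left 416, while without library 1 or 4 it left 1035 or 1116. Asking for 3 of 4 libraries left 131. When the 13 libraries that listed at least 3000 peaks were held to their 3000 best-scoring ones and the other 7 were left out, 596 regions passed, of which 128 overlapped one of the 1298. Leaving out the same 7 libraries with all peaks of the others kept, a setting chosen after seeing the data, gave 1338. With peaks at or above each library's median score, 841 passed, of which 408 overlapped one of the 1298. Most regions admitted by either of these stricter rules were not among the 1298. Both rules also drop peaks of the other groups, and what let each new region pass was not tested.

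**Figure D5:**
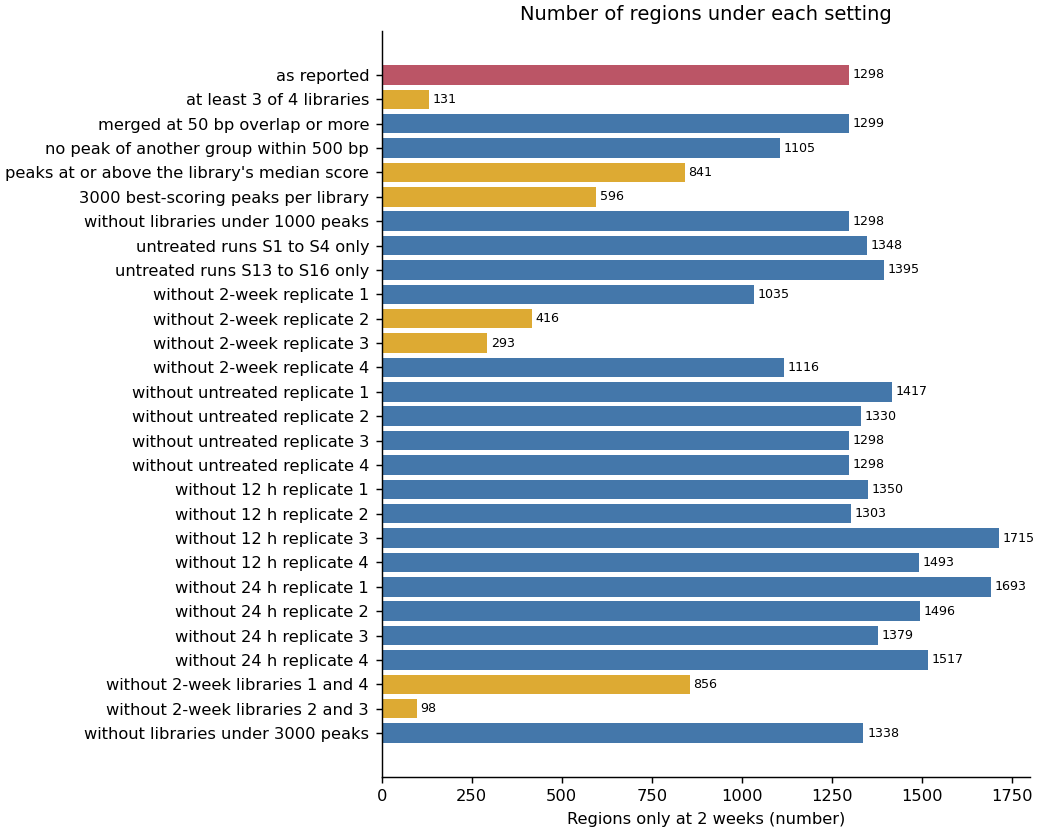
Number of regions found only at 2 weeks (x axis) under each setting (y axis); the red bar is the value reported, blue bars lie within 1.5 times of it and yellow bars do not. Leaving out 2-week library 2 or 3 gives 416 or 293 regions. Leaving out any library or untreated number of the other groups, which relaxes the rule, gives 1298 to 1715.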

How the data were processed

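ATAC-seq peak lists of 20 libraries were used as deposited, 1 list per library, in mm9 coordinates (HOMER and mm9 per the submitters' processing notes; no aligner is named in what was used). Per the file headers, the authors called peaks of a fixed width per library at a fragment length of 300 bp and a false discovery rate of 0.001. Each peak needed 4-fold more tags than a control and than the surrounding 10000 bp, and the control named is the library itself. How its tags were counted apart from the peak's is not stated. The deposited columns used were the normalised tag count (a signal, scaled to 10000000 tags), the focus ratio (a fraction), the peak score and the fold over control, a ratio. The deposited p-values were not used in any test.

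Of 264891 peak lines 228938 had distinct positions, and repeated positions were counted once per region. Peaks were merged with Python 3.11.15 and pandas 2.3.3. The merge was tested on simulated peaks and compared with bedtools 2.31.1. Where a library had several peaks in a region the best-scoring one was used. Regions named by rule were the 12 with the highest mean score among those in all libraries, and the 3 highest and 3 lowest of those in 2. The members and lists were chosen with earlier results of these data known. Gene assignment, motif search, marker genes and the RNA comparison were planned on an mm9 annotation and were not run, since the gene tables used here are of GRCm38.p6. Counting error in single peaks is large at these tag numbers, and no test between groups was made.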

Additional observations from a re-analysis of the deposited data

Results flagged for a closer look

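In the 14 regions listed in all 4 libraries at 2 weeks, by score and by normalised tag count, and in the totals of the lists of each group, the highest and lowest of 4 values were compared with the rest. In 4 of 53 such sets of 4 values, 1 library lay apart from the other 3, and chance sets 1 apart in about 1 of 20. In region 1 (chr7:89932383-89932508) library 4 had a score of 19.5, against 14 to 14.5 in the others. In region 3 (chr10:82972102-82972294) library 1 had a score of 21, against 9.5 to 11. By normalised tag count, library 1 was low in region 4 (chr10:5559294-5559444), with 6.99 against 9.50 to 9.78. Library 2 was low in region 8 (chr13:76726464-76726587), with 5.78 against 8.95 to 9.50. No region lay apart by both quantities.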

How the results depend on the processing

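The count of regions found only at 2 weeks (1298) was recomputed under 27 other settings and stayed within 1.5 times of its value under 20. Most of these 20 only left out libraries of the other groups. Such a setting relaxes the rule and kept all 1298 regions each time, so the number 20 does not measure how stable the count is. It was 131 when 3 of 4 libraries were asked for, 841 with peaks at or above each library's median score, and 596 with the 3000 best-scoring peaks of the 13 libraries that listed as many, the other 7 being left out. Leaving out each 2-week library in turn gave 293 to 1116, and leaving out each untreated number, 12 h or 24 h library gave 1298 to 1715. Of the settings chosen after seeing the data, leaving out 2-week libraries 1 and 4 gave 856, leaving out libraries 2 and 3 gave 98, and leaving out the 7 lists under 3000 peaks gave 1338. The cause of these changes was not tested, beyond the smaller number of libraries or peaks that each setting admits.

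Merging only at an overlap of 50 bp gave 1299 regions, of which 1069 overlapped one of the 1298. The alternatives for RNA were not run, since no mm9 annotation was used here. No paired analysis was possible because the counts of regions come from no test and each list was called on its own. Little can be read from absence where lists are short: untreated lists held as few as 4 peaks. List length did not follow depth alone, since 24 h library 1 listed 24491 peaks from 7629951 tags and 2-week library 1 listed 7295 from 17871104. The minimum score of a peak was 6 to 9 tags, depending on the library.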
